A study of Rattus norvegicus with 18 samples.

Results

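The line by training interaction in rat gastrocnemius asks, for each gene, whether 8 weeks of treadmill training was followed by another expression in the high responder line than in the low responder line. Its members are the 12 libraries of the responder lines out of 18 libraries in the series, taken by their labels, and the contrast is the trained minus untrained difference of the high responder line less that of the low responder line. A value above 0 therefore means a more positive training difference in the high responder line, and a value below 0 a more positive one in the low responder line.

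Both lines descend from the genetically heterogeneous N:NIH rat stock and were bred, up to generation 15, for a large or a small gain of running distance after training. HRT (high responder, untrained), HRTT (high responder, trained for 8 weeks), LRT (low responder, untrained) and LRTT (low responder, trained for 8 weeks) each held 3 male rats, all first tested for running capacity at 10 to 12 weeks of age. Untrained rats were other animals than the trained ones and also ran the capacity tests, so every muscle, taken 48 hours after the last test, had been exposed to running. The rats carry the many alleles that selection and drift left in each line, and the lines are compared as lines, with no single locus manipulated. Whole muscle was sequenced as poly(A) RNA, so that fewer cells of a type and less RNA per cell cannot be told apart in any value below.

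Endurance training is known to shift muscle toward slow, oxidative fibres, which use their own myosins, troponins and calcium pumps, and to enlarge the capillary bed. Selection for the training gain separates animals by how much training improves running distance, whatever adaptation brings the gain. An interaction is one form that a difference between such lines could take in muscle RNA. A gene that training moves equally in both lines has an interaction of 0, however large the training difference itself is.

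Library totals ranged from 25084058 to 41446415 counts, with 16408 to 17316 genes detected and between 27.7% and 30.1% of the counts on the 10 highest genes. LRT held 37849730 to 41446415 counts and LRTT 25084058 to 36404512, without overlap, while HRT (32099533 to 36045341) and HRTT (33674213 to 38066798) overlapped. The interaction of the totals was 9632612 counts (two-sided exact permutation test within lines, p = 0.045, n = 3 rats per group, smallest p possible 0.005; Benjamini-Hochberg adjusted p = 0.09 over the 2 library measures tested), and p ranged from 0.025 to 0.12 when 1 library was left out. Over the 500 genes of highest variance, the first principal component took 50.7%, and its scores overlapped between all 4 groups, with an interaction of 12.6 (exact permutation p = 0.675). In addition, the column headings carry a number whose meaning is not given: it was 2 for all HRT and LRTT libraries and 1 or 3 for all HRTT and LRT libraries. The interaction sets exactly these 2 sets of libraries against each other, so that whatever the number stands for cannot be told apart from the interaction, no fit with it as a term is possible, and no number holds trained and untrained rats of 1 line.

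**Figure D1:**
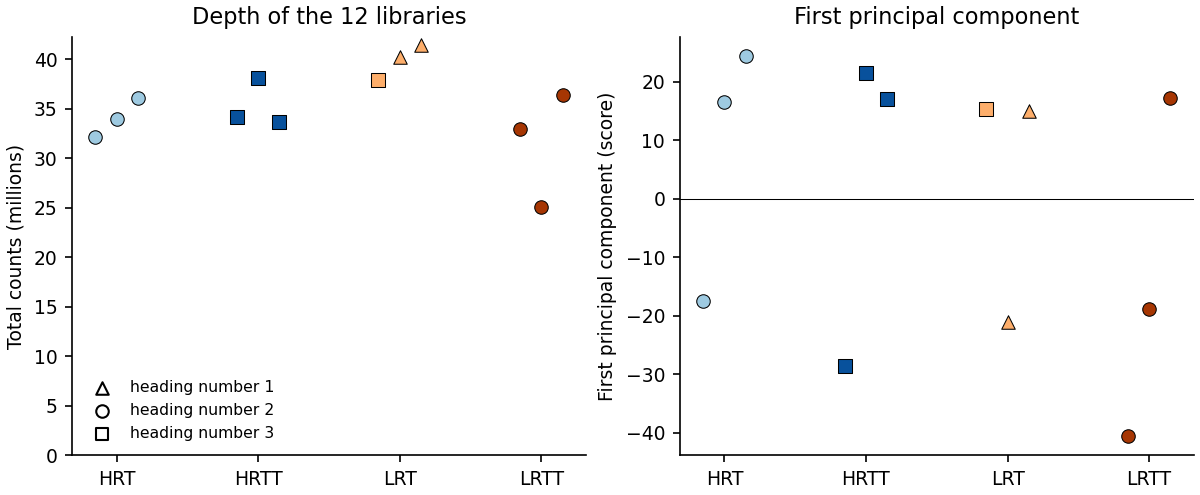
Left, total counts (in units of 1e6) and right, score on the first principal component for each of the 12 libraries, by group (n = 3 rats), with symbols for the number in the column heading. The 3 LRT libraries lie above the 3 LRTT libraries in depth, the component scores overlap between groups, and circles (number 2) fill HRT and LRTT only.

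No gene passed the test of the interaction. Of 13478 genes tested with edgeR's quasi-likelihood test, 0 (0%) passed the call rule, a fold above 1.5 at an adjusted p (Benjamini-Hochberg) under 0.05, and the lowest adjusted p was 0.642. At an unadjusted p under 0.05, 502 genes (3.72% of those tested) remained, 227 above 0 and 275 below 0, against 674 that an even spread of p-values would place there. This count rested on single libraries: it was 961 of 13608 genes without LRTT replicate 3, 317 without HRTT replicate 2 and 318 without LRT replicate 1. DESeq2 called 3 genes, all below 0, with 509 at an unadjusted p under 0.05, and limma voom called 0, with 505. Neither training difference gave a call by itself in the same fit. In the high responder line 0 genes (0%) were called and 335 (2.49%) had an unadjusted p under 0.05, and in the low responder line 0 (0%) and 565 (4.19%). The count of 335 was 536 without HRT replicate 3, and that of 565 was 1177 without LRTT replicate 3, 343 without LRT replicate 1 and 376 without LRTT replicate 2. By DESeq2 the high responder line had 2 called genes and the low responder line 8.

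**Figure D2:**
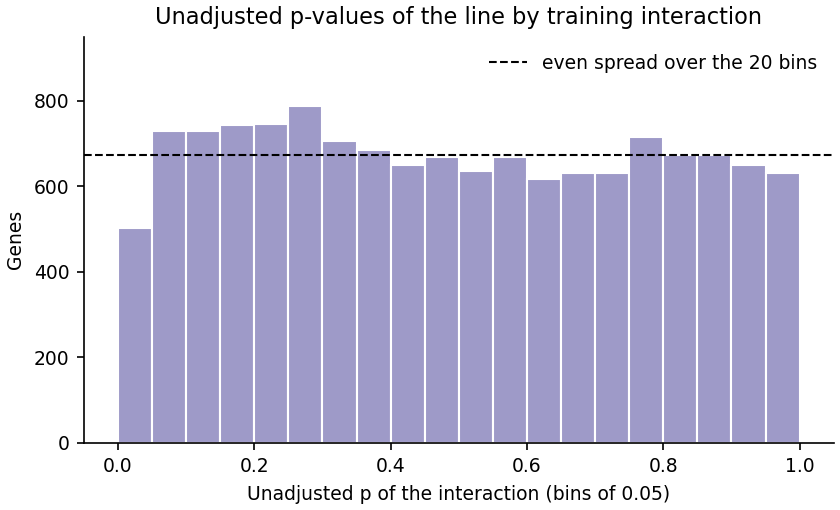
Histogram of the unadjusted p-values of the interaction over 13478 genes (x axis, bins of 0.05; y axis, genes), with a dashed line at an even spread. The lowest bin holds 502 genes, fewer than the 729 in the bin beside it and fewer than the 674 of the dashed line, whereas 961 genes fall there without LRTT replicate 3.

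The precision of the contrast sets what could have been seen. An interaction combines the spread of 4 groups of 3 rats, and its standard error had a median of 0.27 on the log2 scale (quartiles 0.19 and 0.45), against 0.19 for the training difference of either line alone. The 95% interval of the interaction had a median half-width of 0.60. It lay within a 2-fold change in either direction for 8316 genes (61.7%) and within a 4-fold change for 11996 (89%). For the other genes it reached past 4-fold, through a wide interval or a large estimate.

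Size followed abundance. In the lowest of 4 equal bins of genes by abundance, with a mean CPM (counts per 1e6 counts of the library) from 0.126 to 2.08, the median size of the interaction was 0.38 (log2) with a median standard error of 0.56. In the highest bin, from a CPM of 28.7 upward, the median size was 0.16 with a median standard error of 0.19. The share of genes at an unadjusted p under 0.05 was 4.15% in the lowest bin and 3.68% in the highest. Interactions past 2-fold were thus mostly found among scarce transcripts: 419 genes in the lowest bin, 80 and 32 in the middle bins, and 22 in the highest.

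The 2 training differences share no library and could be set side by side. Over 13478 genes Pearson's correlation between them was 0.13 and Spearman's -0.07, given as a description across genes that are not independent, and 44.1% of genes had the same sign in both lines. Past 1.5-fold in both lines, 142 genes were higher and 70 lower after training in each, 40 were higher in the high and lower in the low responder line, and 60 the reverse. Of the 502 genes with an unadjusted interaction p under 0.05, 476 had training differences of opposite sign and 26 of the same sign, a split that the selection on the difference itself favours. The larger of the 2 differences was in the low responder line for 284 of them and in the high responder line for 218.

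**Figure D3:**
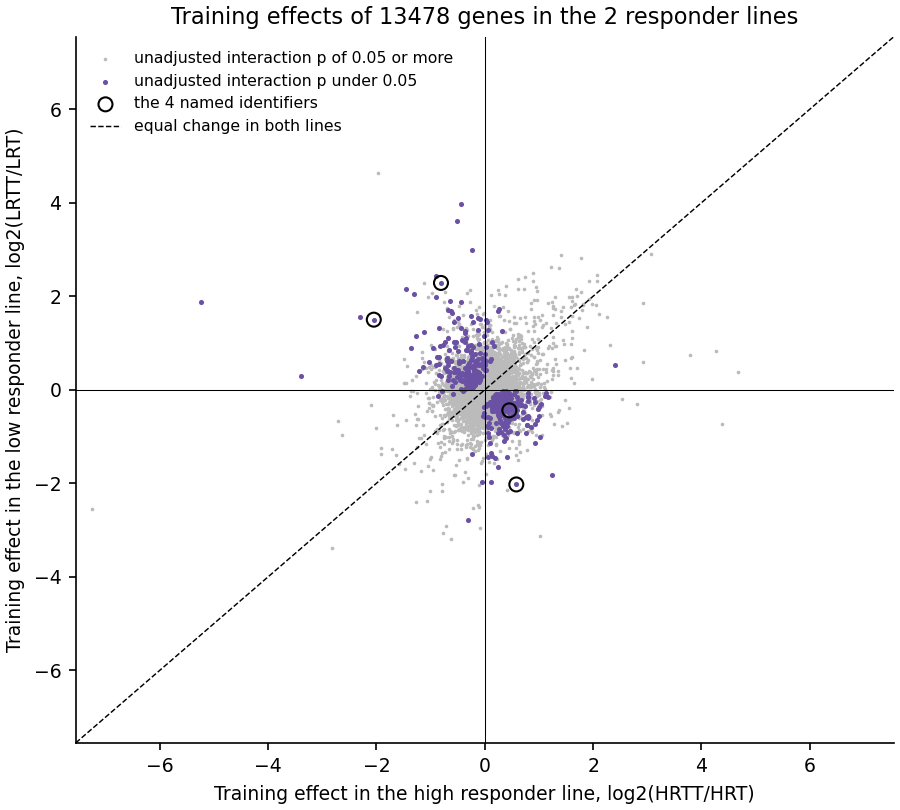
Training difference in the high responder line (x axis, log2 HRTT over HRT) against that in the low responder line (y axis, log2 LRTT over LRT) for 13478 genes, with 502 at an unadjusted interaction p under 0.05 in purple and the 4 identifiers of the text circled. The purple points lie away from the dashed line of equal change, 476 of them in the 2 quadrants where the signs differ.

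Separation of the individual rats gave a further view. All 3 trained rats lay on one side of all 3 untrained rats in 1131 genes of the high responder line (8.39%) and 1324 of the low responder line (9.82%). Both lines separated in 117 genes. In 72 of these (0.534% of genes tested) the directions were opposite and in 45 (0.334%) the same. Among the opposite genes, 42 were lower in HRTT and higher in LRTT than in their untrained groups, with a median interaction of -0.52 and a lowest value of -3.85, and 30 showed the reverse, with a median of 0.70 and a highest value of 1.68. Of the 72, 62 had an unadjusted interaction p under 0.05, and none passed the adjusted threshold.

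The identifiers of the count table are not paired with gene symbols in the tables used here, so the 2 with the lowest p in each direction are given by identifier. ENSRNOG00000015347 had a CPM of 14.6, 21.6 and 14.6 in the 3 HRT rats and 4.15, 11.97 and 12.9 in HRTT. It had 3.76, 3.63 and 3.90 in LRT and 21.1, 19.0 and 15.1 in LRTT. Trained rats were thus all below the untrained ones in the high responder line and all above them in the low responder line, and the untrained LRT rats were the lowest of all 12 libraries. The interaction was -3.09 ± 0.48 (log2, SE; 95% interval -4.16 to -2.03), with an adjusted p of 0.642 by edgeR. Without HRTT replicate 1, which held the lowest HRTT value, the interaction was -2.71 with an adjusted p of 0.00808, and DESeq2 on all libraries gave -3.09 with an adjusted p of 1.5e-06.

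ENSRNOG00000025108 was also highest in HRT and LRTT, at a much lower level, but lowest in HRTT. Its CPM was 0.905, 1.16 and 0.642 in HRT, 0.339, 0.238 and 0.0612 in HRTT, 0.541, 0.257 and 0.374 in LRT, and 0.875, 0.899 and 1.53 in LRTT. These stand for between 2 and 58 counts a library, and trained and untrained rats did not overlap in either line. The interaction was -3.55 ± 0.67 (95% interval -5.01 to -2.09; edgeR adjusted p = 0.919; DESeq2 adjusted p = 0.00635).

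Above 0, ENSRNOG00000000095 was the steadier of the pair. Its CPM was 10.02 ± 1.57 in HRT, 13.7 ± 1.00 in HRTT, 14.4 ± 0.60 in LRT and 10.6 ± 1.07 in LRTT (SD, n = 3 rats each). The trained rats were all above the untrained in the high responder line and all below in the low responder line, so that HRTT and LRT were the high groups. The interaction was 0.89 ± 0.19 (95% interval 0.49 to 1.30; edgeR adjusted p = 0.947; DESeq2 adjusted p = 0.0821). ENSRNOG00000006104 was scarce, with 3, 4 and 8 counts in the LRTT rats and a CPM of 0.153 ± 0.051 in LRTT against 0.65 ± 0.085 in LRT. In the high responder line its HRT rats (0.218, 0.423 and 0.671) overlapped its HRTT rats (0.592, 0.742 and 0.643). The interaction was 2.61 ± 0.56 (95% interval 1.38 to 3.84; edgeR adjusted p = 0.947; DESeq2 adjusted p = 0.306). By the construction of the contrast, the direction of each of the 4 follows the split of the heading number.

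**Figure D4:**
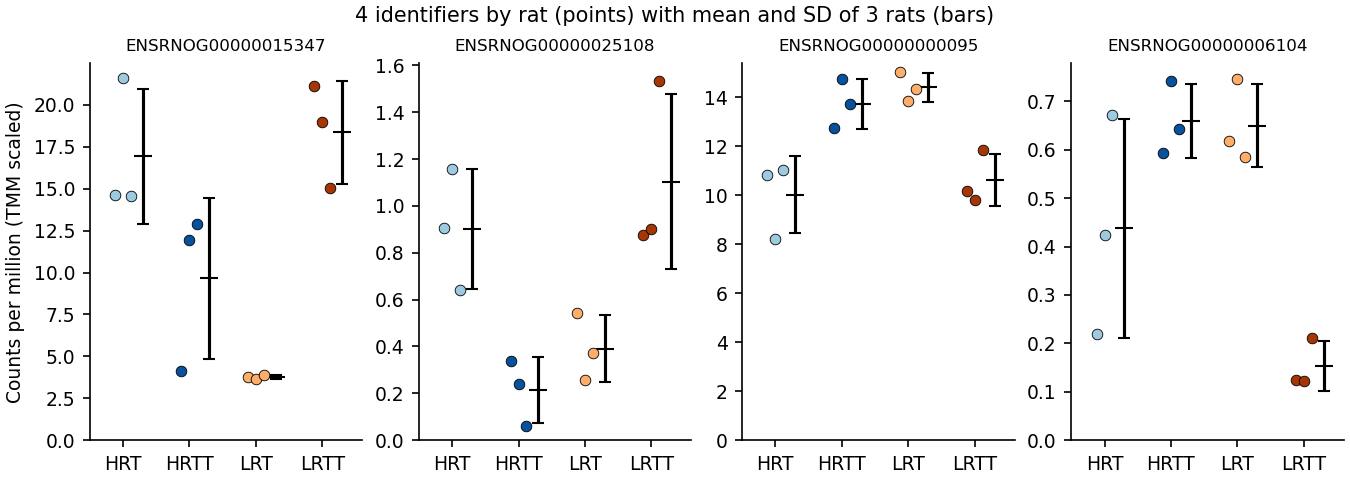
CPM (y axis, from 0) of the 4 identifiers in each rat, by group, with the mean and SD of 3 rats as a bar. For ENSRNOG00000015347 and ENSRNOG00000025108 the HRT and LRTT rats are high, for ENSRNOG00000000095 the HRTT and LRT rats are high, and ENSRNOG00000006104 is lowest in LRTT, with 1 HRT rat at 0.218 beside the highest LRTT rat at 0.212.

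Genes by name come from the authors' tables of the genes they called in single comparisons, which give 1 Cuffdiff level per group over its 3 libraries, in a unit the tables do not name. Such a level has no error between rats and no test of the interaction, and a name appears only because it was called in some comparison. The authors listed 90 names for HRTT against HRT and 255 for LRTT against LRT, by another test. In the edgeR fit of the counts, 0 genes were called in either of these comparisons. Of 568 names in the 4 tables of the responder lines, 93 had a level in all 4 groups. Their interaction had a median of -0.10 (log2), from -6.45 to 4.93, with 35 names above 0 and 57 below. The counts give a median of -0.02 over all 13478 genes. Past 1.5-fold in both lines, 8 of the 93 names (8.6%) had training differences in opposite directions and 35 (37.6%) in the same direction. In the counts, over all 13478 genes, 1.57% were past 1.5-fold in the same direction and 0.742% in opposite directions, as fitted differences with no test. The way a name was listed sets most of this split: 33 of the 35 and 7 of the 8 were among the 40 names that the authors called in both training comparisons, which had to be past 1.5-fold in both lines. Among the 58 names listed through both comparisons of the lines, 5 were opposite and 3 the same. Another 6 were past 1.5-fold in the high responder line alone, 15 in the low responder line alone and 29 in neither.

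The promoters of 4 of these genes are shown, picked from the names with a match to a known element. The 250 bases before the RefSeq start (assembly GRCr8) are printed with the match in capitals. Chac1, which breaks down glutathione and is a known target of the stress factor Atf4, is shown as one of the opposite names. Ciart, a repressor of the circadian clock, is shown as a clock gene whose training difference was past 1.5-fold in the high responder line and 1.32-fold, in the same direction, in the low responder line. Myoz2 and Myom3, which encode sarcomere proteins of slow and intermediate fibres, are shown as names with nearly equal training differences in both lines. Chac1 lies on chromosome 3 (126795881 to 126796130, plus strand), Ciart on chromosome 2 (186112247 to 186112496, minus strand), Myoz2 on chromosome 2 (213852779 to 213853028, minus strand) and Myom3 on chromosome 5 (153276056 to 153276305, plus strand).
Chac1: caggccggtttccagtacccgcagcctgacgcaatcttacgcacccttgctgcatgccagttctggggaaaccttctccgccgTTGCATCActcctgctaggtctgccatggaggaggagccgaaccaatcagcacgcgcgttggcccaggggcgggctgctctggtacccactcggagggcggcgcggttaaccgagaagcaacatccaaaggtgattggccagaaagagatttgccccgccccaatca
Ciart: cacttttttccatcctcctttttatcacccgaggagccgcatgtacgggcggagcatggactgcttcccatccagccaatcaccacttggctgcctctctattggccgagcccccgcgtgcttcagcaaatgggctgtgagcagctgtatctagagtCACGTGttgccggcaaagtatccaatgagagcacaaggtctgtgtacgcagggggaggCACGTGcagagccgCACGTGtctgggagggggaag
Myoz2: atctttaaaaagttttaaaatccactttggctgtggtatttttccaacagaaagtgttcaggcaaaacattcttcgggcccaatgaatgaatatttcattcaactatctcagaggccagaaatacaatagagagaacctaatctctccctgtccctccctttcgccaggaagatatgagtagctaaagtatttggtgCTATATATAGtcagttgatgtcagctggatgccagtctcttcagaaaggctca
Myom3: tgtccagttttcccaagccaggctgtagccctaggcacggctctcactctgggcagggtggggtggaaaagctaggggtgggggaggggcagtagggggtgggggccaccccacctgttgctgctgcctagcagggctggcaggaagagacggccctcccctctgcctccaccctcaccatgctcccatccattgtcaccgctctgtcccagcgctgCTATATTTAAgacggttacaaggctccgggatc
Capitals mark matches to the CARE (TGATGNAA, bound by Atf4 with C/EBP factors) in Chac1 and to the E-box CACGTG (bound by Clock and its partner) in Ciart. In Myoz2 and Myom3 they mark matches to the MEF2 element. Each was searched on both strands. The CARE stood in 3.4% of 33469 rat promoters of this length and in 5 of the 61 names with 4 levels that had a promoter in the table. The E-box stood in 5.59% of all promoters and in 5 of the 61 names, and Ciart held it 3 times. The MEF2 element stood in 2.96% of all promoters and in 3 of the 61 names, the third being S100b. The D-box TTATGTAA (0.828% of promoters) and the CArG element (1.5%) were in none of the 61. A match is a run of letters in this window and shows no binding.

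The largest of the opposite interactions was that of a contractile gene at low levels. Myh6, the alpha cardiac myosin heavy chain, had a level of 1.45 in HRT and 0.333 in HRTT but 0.241 in LRT and 4.83 in LRTT. Its interaction of -6.45 rests on the low HRTT and LRT levels, whose error is not given. Chac1 had 26.3 in HRT, 9.89 in HRTT, 15.6 in LRT and 30.4 in LRTT (-2.37). Aqp4, the water channel of the fast fibre membrane, had 34.9, 18.3, 27.0 and 48.7 in the same order (-1.79). In all 3 the trained level was below the untrained one in the high responder line and above it in the low responder line, and LRTT was the highest group.

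The same held for 4 further names. Kera, the proteoglycan keratocan of cornea and tendon, had 15.1 in HRT, 7.01 in HRTT, 5.06 in LRT and 25.5 in LRTT (-3.44). Trim45, a ubiquitin ligase of the tripartite motif family, had 6.69, 3.77, 1.53 and 7.35 (-3.09). Its training differences (log2 -0.83 in the high and 2.26 in the low responder line) were close to those of ENSRNOG00000015347 (-0.81 and 2.29) in the same libraries. Whether these are 1 gene could not be checked, so they are not counted as separate observations. Fam111a, a serine protease with a role at replication forks, had 8.02, 3.62, 5.13 and 17.0 (-2.88), and Marc1, a mitochondrial amidoxime reductase, 6.22, 2.84, 7.09 and 15.9 (-2.29). LRTT was the highest group in 7 of the 8 opposite names. Of the 40 names present in both training tables, 7 were of this kind. All 7 had the trained level lower in the high and higher in the low responder line, where only HRT or LRTT can be highest. The authors had called these 7 in both comparisons with LRTT, so the count of LRTT as highest is a description. In the counts, interactions of -2.37 or below were found in 27 genes. Their unadjusted p was below 0.05 in 15, and none was called.

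Kera is also a marker of tendon, and other tendon markers were higher in LRTT than in LRT as well. Of 8 tendon markers 4 were listed, Kera, Fmod, Thbs4 and Tnmd, and all 4 were higher in LRTT than in LRT. The authors had called all 4 in both comparisons with LRTT, so the count is a description. Among the 83 names with LRT, LRTT and HRTT levels only, LRTT was highest in 69 and lowest in 14. Their summed level was 28.6 in LRT, 79.6 in LRTT and 33.6 in HRTT, with no HRT value for 3 of them. The part of tendon RNA in the Kera value was not tested.

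Scd, the desaturase that makes monounsaturated fatty acids, was the only opposite name above 0. Its level was 0.329 in HRT, 0.637 in HRTT, 12.5 in LRT and 1.37 in LRTT, an interaction of 4.15 that rests on the LRT level. Of 10 markers of fat cells 5 were listed, and all 5 were, like Scd, lower in LRTT than in LRT. The authors had called all 5 in that comparison, so the count is a description. Among the 37 names with HRT, LRT and LRTT levels only, which include 3 of the 5, LRT was highest in 28 and lowest in 9. Adipoq, Lep and Plin1 summed to 10.1 in HRT, 24.8 in LRT and 7.81 in LRTT, with no HRTT value. Scd2, its paralogue, had 5.11, 8.68, 15.4 and 17.9 in HRT, HRTT, LRT and LRTT (0.55) and was not low in LRTT. The part of fat tissue in the Scd value was not tested.

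Among names past 1.5-fold in the high responder line alone, a pair of muscle genes had the highest interactions. Sln, sarcolipin, which uncouples the sarcoplasmic reticulum calcium pump, had 14.8 in HRT and 305 in HRTT, a 20.6-fold difference, against 56.3 in LRT and 38.1 in LRTT. Its interaction of 4.93 was the highest of the 93 names. Actc1, cardiac alpha-actin, had 8.24 in HRT, 29.0 in HRTT, 14.0 in LRT and 12.5 in LRTT (1.98). In the counts only 1 gene lay as far above 0 as Sln, and its unadjusted p was 0.05 or more. The spread between rats behind the Sln levels is not given.

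The remaining names of this kind were lower in HRTT or less far from equal. Slc2a13, a myo-inositol transporter, had 6.15 in HRT, 2.55 in HRTT, 0.832 in LRT and 1.197 in LRTT (-1.80). Cish, an inhibitor of cytokine signalling, had 13.9, 7.26, 3.84 and 3.59 (-0.84). Ciart, shown above, had 1.22, 0.582, 3.26 and 2.47 (-0.66). Each had an HRT to HRTT difference past 1.5-fold and an LRT to LRTT difference below it, and the levels allow no test of the gap.

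Names past 1.5-fold in the low responder line alone included a channel and a secreted protein. Kcna10, a voltage-gated potassium channel, had 2.05 in HRT and 2.90 in HRTT but 0.662 in LRT and 0.279 in LRTT (1.75). Lgi3, a secreted leucine-rich protein, had 2.33, 2.89, 0.628 and 0.352 (1.15). In both, the lines already differed in untrained rats and lay further apart after training. Ankrd1, a stretch-responsive ankyrin repeat protein, had 7.09, 4.89, 30.2 and 9.74 (1.10), so that the high level of untrained LRT was not seen after training. Slc47a1, an organic cation exporter, had 1.51, 1.29, 3.32 and 6.91 (-1.28). Per1, a clock repressor, had 2.24, 2.07, 5.86 and 3.86 (0.49), and Cdkn1a, a cell cycle inhibitor, 7.18, 6.26, 24.4 and 14.5 (0.56).

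Slow fibre genes with 4 levels, other than Myh6 and Sln, had training differences of the same direction in both lines, all 6 of them being names that the authors called in both training comparisons. Of 20 genes in the slow fibre list 8 had 4 levels, 3 with an interaction above 0 and 5 below, with a median of -0.25. The 6 besides Myh6 and Sln were higher after training in both. Myl2, the slow regulatory light chain, had 42.1 in HRT and 148 in HRTT against 60.8 in LRT and 218 in LRTT (-0.03). Tnnc1, the slow troponin C, had 65.0, 248, 111 and 407 (0.05), and Myoz2, calsarcin, 27.0, 102, 57.5 and 198 (0.14). These training differences of 3.44-fold to 3.81-fold were close to equal in the 2 lines. Tnnt1, slow troponin T, had 89.1, 317, 98.1 and 496 (-0.51), Tpm3, slow tropomyosin, 87.1, 285, 98.6 and 448 (-0.47), and Ankrd2, a titin-binding protein, 7.54, 16.5, 11.9 and 43.0 (-0.72). Myom3, outside the list, had 1.27, 5.02, 2.66 and 9.55 (0.14). Others of the list had a training difference in 1 line only for want of a level. In the low responder line Myh7, the slow myosin heavy chain, had 41.6 in LRT and 210 in LRTT, Myl3, the slow essential light chain, 296 and 1086, and Tnni1, slow troponin I, 95.5 and 431. Myh7b, a slow myosin, had 0.793 in LRT and 2.76 in LRTT, with 1.25 in HRTT. In the high responder line Casq2, the cardiac calsequestrin, had 6.70 in HRT and 16.9 in HRTT, with 14.6 in LRT, and Fhl2, a LIM domain protein, 1.07 and 3.04. No interaction could be given for these 6. The list was in part known to move in these libraries, so its direction is no independent evidence.

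Over all 35 names with training differences in the same direction, 29 were higher and 6 lower after training, and the interaction had a median of -0.10 and a highest value of 1.85, with 23 below 0. Gria4, a glutamate receptor subunit, set the upper end, with 12.3 in HRT, 0.601 in HRTT, 19.3 in LRT and 0.262 in LRTT. It was thus lower after training by 20.4-fold in the high and 73.4-fold in the low responder line. Mbp, myelin basic protein, had 1.89 in HRT, 3.68 in HRTT, 2.81 in LRT and 12.3 in LRTT (-1.17). It was higher after training in each line and further so in the low responder line.

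Of 10 markers of Schwann cells and nerve 6 were listed, all 6 higher in LRTT than in LRT, S100b by only 1.08-fold. Each of the 6 was listed through a comparison with LRTT, so the count is a description. Among the 83 names with LRT, LRTT and HRTT levels only, LRTT was highest in 69 and lowest in 14. S100b, a calcium-binding protein of Schwann cells, had 3.12 in HRT, 2.90 in HRTT, 6.39 in LRT and 6.92 in LRTT (-0.22). The part of nerve tissue in the muscle pieces was not tested.

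**Figure D5:**
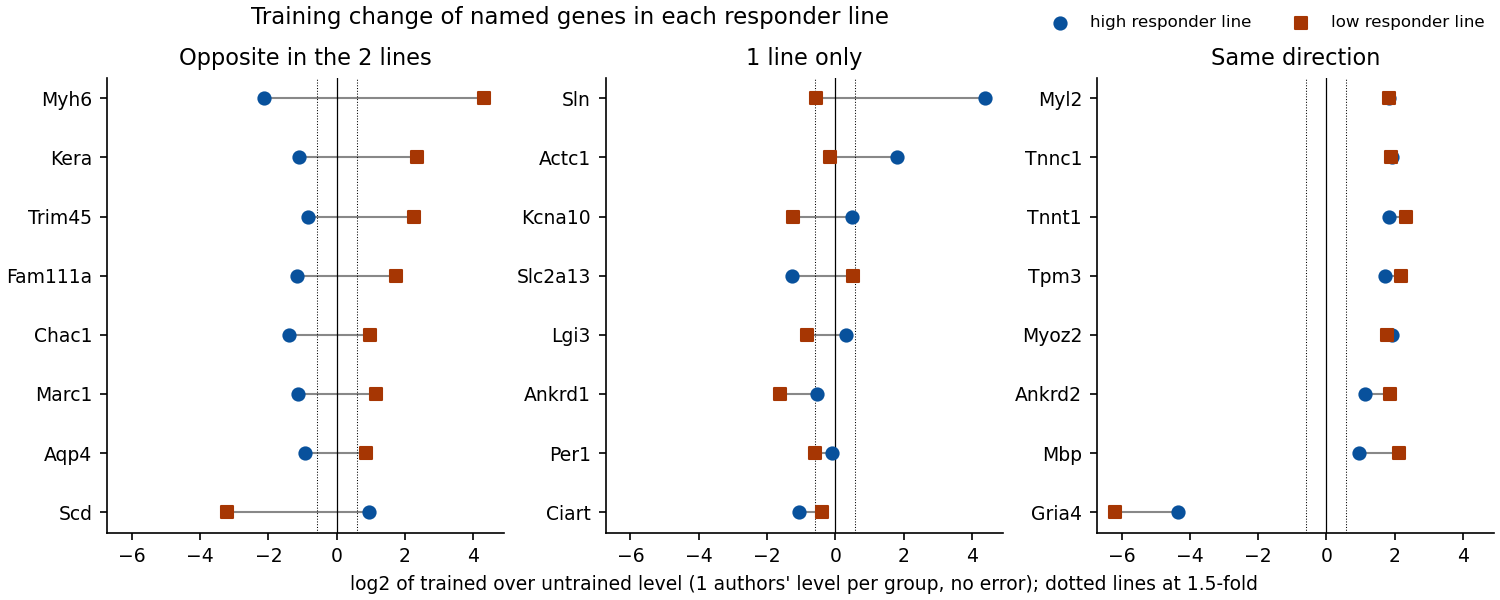
Training difference (x axis, log2 of trained over untrained, 1 level per group and so no error bar) of named genes in the high responder line (circles) and the low responder line (squares), with dotted lines at 1.5-fold. The symbols lie on opposite sides of 0 in the left panel, where Myh6 spans from -2.12 to 4.32, and close together for Myl2, Tnnc1 and Myoz2 in the right panel.

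The other lists had few members with 4 levels. Of 30 lists, 18 of pathways and 12 of cell type markers, 8 had any such member, and 20 of 550 listed genes were covered. The clock list had Per1 and Ciart (median -0.09), the list of atrophy and the integrated stress response Chac1 and Cdkn1a (median -0.91), the interferon list Ifi27 with 204 in HRT, 177 in HRTT, 64.9 in LRT and 85.0 in LRTT (-0.60), the myokine list Lgi3, and the regeneration list Cilp (0.58) and Igfn1 (0.59). None of the 10 markers of the muscle fibre itself was listed, so the tissue label could not be checked by name. Ppargc1a and Vegfa, regulators of mitochondria and capillaries, Myh4, the fastest myosin, Fbxo32 and Trim63, ubiquitin ligases of atrophy, Mstn, myostatin, and Vwa7 were not analysed here.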

How the data were processed

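Gastrocnemius RNA of 12 rats, 3 per group, was sequenced as single reads. The authors deposited raw counts per gene (32882 Ensembl identifiers, Rnor_6.0), made per the file header with featureCounts 1.6.4, strand ignored and a read counted for each gene it overlapped, so overlapping genes share counts. The methods name TopHat2 (2.1.1 in the submitters' processing notes), while the alignments in the header carry names of STAR's form. The deposited tables of called genes give expression levels (signal, unit not named) that the authors made with Cuffdiff per group, beside fold changes and p-values, which were not used. A level given in more than 1 table differed by at most 2.51% and was averaged.

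The count analysis used edgeR 4.0.16 in R 4.3.3 (filterByExpr with a count minimum of 10, TMM scaling, robust quasi-likelihood test, 1 term per group), limma 3.58.1 and DESeq2 1.42.0. A call needed a fold above 1.5 and a p under 0.05 after Benjamini-Hochberg adjustment. CPM (counts per 1e6 counts) uses TMM-scaled totals. The code was tested on simulated data. Replicate numbers paired HRTT with HRT (correlations of deviations 0.47, 0.26 and 0.38) but not LRTT with LRT (-0.25, 0.02 and 0.20), and the fit was kept without a replicate block. Rats were separate animals, and no pair of libraries of the same group agreed within sampling noise. Standard errors and intervals cover the spread between 3 rats per group, and the levels have none.

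The named identifiers are the lowest in p in each direction, and the named genes are those of a chosen set, list members and the names furthest from 0, the last chosen after their values were seen. The contrast, lists and names were chosen with earlier results of these data known. Promoters came from the RefSeq table of GRCr8, in which 61 of 93 names matched, and 0 count identifiers matched any symbol. Figures were drawn with matplotlib 3.10.9. The result for 1 listed gene is not reported here.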

Additional observations from a re-analysis of the deposited data

Results flagged for a closer look

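In 3 of the 4 identifiers, every trained rat lay on one side of the untrained rats in the high responder line and on the other side in the low responder line. The tested difference between the lines was -3.09 (log2) for ENSRNOG00000015347, -3.55 for ENSRNOG00000025108 and 0.89 for ENSRNOG00000000095, with edgeR adjusted p-values of 0.642, 0.919 and 0.947, and none passed. The identifiers were picked for the lowest p of this same difference, which favours such a separation, so it adds no support of its own. Over all 13478 genes the rats separated in this opposite way in 72 (0.534%).

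The interaction of the total counts was 9632612 counts, LRT being deeper than LRTT in every library (exact permutation test, p = 0.045 for 3 rats per group). It did not pass after adjustment (p = 0.09 over 2 measures), and the exact permutation p ran from 0.025 to 0.12 when 1 library was left out. The counts are scaled by depth in every fit, and the part of depth in the interaction of any gene was not tested.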

How the results depend on the processing

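The interaction had 0 called genes under other scalings (DESeq2 size factors, totals only), other filters, limma voom, no fold minimum, an adjusted p under 0.10, a test against a fold of 1.5, and the replicate block (0 called, 596 at an unadjusted p under 0.05), which changed no call in the fit of all 12 libraries. DESeq2's own test called 3 genes for the interaction, 2 for training in the high responder line and 8 in the low responder line. Fitted with only its own 2 groups, the low responder line had 1 call, and the high responder line, with the replicate block, 1. This last fit, the first component as a covariate (0 calls throughout) and the checks of the levels were chosen after seeing the data. Leaving out 1 library gave 0 to 1 calls for the interaction, 0 to 1 for the high and 0 to 3 for the low responder line. The 1 interaction call came without HRTT replicate 1, which also gave 1 call in each line, and the low responder line had 1 call without LRTT replicate 1 and 3 without LRTT replicate 3. The cause was not tested.

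The interaction of total counts ranged from 6442873 to 12103100 counts when 1 library was left out (exact permutation p from 0.025 to 0.12), and the p was 0.05 or more without any 1 of HRT replicates 1 and 2, HRTT replicate 2, LRT replicates 1 to 3, and LRTT replicates 1 and 2. For the 4 identifiers no alternative turned the direction. A fold above 2 left 4 names in opposite and 23 in the same direction.

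The share of mitochondrially encoded genes, the medians of lists in the counts and the symbols in the counts were not run, because identifiers and symbols are not paired, and ENSRNOG00000025108 and ENSRNOG00000006104 have no value where 10 counts in each library were required. Only 3 rats per group and a median interval half-width of 0.60 limit what the counts can show.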

Other observations

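Some names had a level in only 3 of the 4 groups, so that their interaction could not be computed. For 83 names HRT was missing. LRTT was above both LRT and HRTT in 69 of them and below both in 14, and each of these names had been listed by the authors in both comparisons with LRTT. Rcan3, an inhibitor of calcineurin, had 0.57 in HRTT, 0.769 in LRT and 26.8 in LRTT, and Rcan1, from the same family, 32.0, 42.7 and 77.8. Of 32 genes in the extracellular matrix list 3 were among the 83 names, and all 3 were highest in LRTT, as were 69 of the 83. Fmod is also a tendon marker, and the 4 tendon markers listed summed to 33.6 in HRTT, 28.6 in LRT and 79.6 in LRTT. Their part in the matrix values was not tested. Col1a1, the main fibrillar collagen, had 27.3 in HRTT, 30.6 in LRT and 60.7 in LRTT, Tnc, a matrix protein of remodelling tissue, 0.462, 0.469 and 1.47, and Fmod, a collagen-binding proteoglycan, 8.65, 8.28 and 20.6. Spp1, osteopontin, had 0.714, 0.627 and 3.61. Wnt16, a secreted signal, had 0.467, 1.054 and 3.66, and Vat1l, an oxidoreductase-like protein, 0.0577, 0.0329 and 0.35. Ostn, osteocrin, a factor secreted by muscle, was among those with the lowest level in LRTT, at 76.9, 177 and 39.1.

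For 7 names LRT was missing. Dbp, a clock output factor, had 38.5 in HRT, 16.5 in HRTT and 52.4 in LRTT, and Nfil3, which opposes it at the same sites, 19.2, 33.1 and 20.5. Adcy1, an adenylyl cyclase, had 0.169, 0.506 and 0.137.

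For 37 names HRTT was missing, each listed by the authors in both comparisons with LRT. LRT was above both HRT and LRTT in 28 of them and below both in 9. Of 10 adipocyte markers 3 were among these names, and all 3 were highest in LRT: Adipoq, adiponectin, had 8.30 in HRT, 20.3 in LRT and 6.39 in LRTT, Plin1, a lipid droplet protein, 1.29, 3.10 and 1.16, and Lep, leptin, 0.50, 1.36 and 0.258. Their part in the levels of the other names was not tested. Vwf, an endothelial marker, had 1.97, 3.09 and 1.91. Rnf212, Ptgr1 and Tmem158 lie outside the lists and were chosen after their values were seen. Rnf212 had 3.03 in HRT, 0.17 in LRT and 2.68 in LRTT, Ptgr1, a reductase of prostaglandins, 2.35, 0.37 and 1.83, and Tmem158 1.13, 3.85 and 1.05.

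For 12 names LRTT was missing, each listed in both comparisons with HRT. HRT was above both HRTT and LRT in 4 of them and below both in 8. Angptl4, an inhibitor of lipoprotein lipase, had 2.36 in HRT, 0.852 in HRTT and 0.928 in LRT. Arap2 and Kcna2, a potassium channel, were also chosen after their values were seen, with 2.44, 0.449 and 0.472 for Arap2 and 0.111, 1.58 and 0.63 for Kcna2. In each of these sets a name entered through the authors' calls in 2 comparisons that share a group, so that the counts are a description.

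Further names had levels in 2 groups only and no interaction: Foxo1, a factor of atrophy, with 3.45 in HRT and 6.73 in LRT, and Bhlhe40, a clock repressor, with 39.3 in HRTT and 75.3 in LRTT.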
